A study of Mus musculus with 12 samples.

Results

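The pachytene spermatocyte marker genes described here are *Hspa2*, *Clgn*, *Crisp2*, *Meig1*, *Nme5*, *Rsph1* and *Spag6*. They were chosen by name, as 7 of the 20620 genes in the deposited table. Whole testes of C57BL/6 mice at postnatal day 16 (P16) were used for RNA sequencing and for ribosome profiling. The testes were *Mael*+/-, with 1 intact and 1 mutated copy of *Mael*, or *Mael*-/-, with no intact copy, and each genotype had 3 extracts. Each extract gave 1 total RNA library and 1 footprint library, so 12 libraries were made, and GEO's design text calls the 3 extracts of a genotype biological replicates. The control animals thus also carried a mutated allele, and the tissue was unsorted, so that fewer spermatocytes and less RNA per spermatocyte cannot be told apart. The study made these libraries to ask whether translation changes in testes in which the LINE-1 retrotransposon is overexpressed.

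Pachytene is the long stage of meiotic prophase in which the paired chromosomes are fully joined and exchange DNA. Spermatocytes at this stage already transcribe many genes whose proteins are needed much later, when the sperm tail and the acrosome are built. In the first wave of spermatogenesis of young mice, germ cells advance together, so the amount of pachytene transcripts in a whole testis follows how far that wave has come. Maelstrom, the product of *Mael*, is needed to make piRNAs, which guide the silencing of transposons in male germ cells, and *Mael*-/- males lose germ cells in meiosis.

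The 7 genes have different roles. *Hspa2* encodes a 70 kDa heat shock protein of spermatocytes that is needed to finish meiotic prophase. *Clgn* encodes calmegin, a chaperone of the endoplasmic reticulum for sperm surface proteins. *Rsph1* encodes a part of the radial spoke head of the sperm tail axoneme, *Nme5* a protein of the nucleoside diphosphate kinase family linked to the radial spokes, and *Spag6* a protein of the central pair of microtubules. *Meig1* encodes a small protein that acts at the manchette, the microtubule skirt that shapes the spermatid. *Crisp2* encodes a cysteine-rich protein of the acrosome and the tail.

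Since the 7 genes varied together over the libraries, as described below, the RefSeq promoter windows (GRCm38.p6, 250 bases before to 50 after a start) were searched on both strands for 4 sets of letters. They were TAACNG, which MYB proteins such as the pachytene activator A-MYB bind, and GTTGCC, which is part of the X-box read by RFX proteins. The others were TGACGTCA, the full site of CREB and CREM proteins, and TGACG, which is part of it. Windows were matched for 4 of the 7 genes, *Hspa2*, *Crisp2*, *Meig1* (with 3 starts) and *Spag6*; *Clgn*, *Nme5* and *Rsph1* were not matched. The MYB letters were found in the windows of *Hspa2*, *Crisp2* and *Spag6*, and in 23.3% of all 32851 windows. The TGACG letters were found at *Hspa2* and in 2 of the 3 windows of *Meig1*, and in 20.8% of all windows. The full TGACGTCA letters were found in no window of the 4 genes, and in 1.79% of all windows. The window of *Spag6l*, the similar copy of *Spag6*, did hold them, and it also held MYB, GTTGCC and TGACG letters. Which of these loci was counted is not known, as described below. The GTTGCC letters were found at *Spag6* alone among the 4, and in 12.5% of all windows. The other TGACG match of *Meig1*, 134 bases upstream of another of its starts, is not printed. The 30 bases around the remaining letters are printed here for *Hspa2*, *Crisp2* and *Meig1*, as the members with matches whose locus is certain, written 5′ to 3′ along the gene, with the matched letters, on either strand, in capitals.
Hspa2, MYB letters, chr12:76404183-76404212, plus strand, 175 bases upstream of a start inside the annotated gene: gcttcatttgcaTAACGGccgccccttggt
Crisp2, MYB letters, chr17:40794099-40794128, minus strand, at base 31 of the transcript: ggcggctggaggCGGTTAtcgttgctcacc
Hspa2, TGACG letters, chr12:76404219-76404248, plus strand, 139 bases upstream of that start: gcccaaggctggCGTCAagcgcctcaccca
Meig1, TGACG letters, chr2:3419084-3419113, minus strand, at base 29 of a transcript: ccggccgagcggCGTCAcggcgttgctagg
These matches describe letters in the windows, and whether a protein binds there was not measured.

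The genes lay on several chromosomes of GRCm38.p6. *Hspa2* was on chromosome 12 (76403812 to 76406938), *Clgn* on chromosome 8 (83389790 to 83428552) and *Meig1* on chromosome 2 (3409043 to 3422648). *Crisp2* (40764734 to 40794146) and *Rsph1* (31255019 to 31277296) were both on chromosome 17, and *Nme5* was on chromosome 18 (34562634 to 34579152). The symbol *Spag6* fits a gene on chromosome 2 (18694011 to 18749746) and is also the older symbol of *Spag6l* on chromosome 16 (16753016 to 16829363). The counts table had 1 line for *Spag6* and none for *Spag6l*, so the locus that was counted is not known, and the similar copies may share reads. Exons of *Spag6* on chromosome 2 overlapped those of *Gm20539* on the opposite strand by 283 bases, and the strand setting of the counting is not given in the sources used here.

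RNA libraries held between 13697267 and 27462358 gene counts and footprint libraries between 7609932 and 13233565. Levels are given in CPM, a gene's counts scaled to a common library size with edgeR's TMM factors, and ± values are SD over 3 libraries. *Mael* itself matched the labels, with 144 to 219 CPM in *Mael*+/- RNA and 1, 2 and 0 counts in the *Mael*-/- RNA libraries. The tissue label held as well, by the summed RNA levels of marker lists. Sertoli cell markers (12 of 12 detected) summed to 7534 to 8735 CPM. Spermatogonial markers (12 of 12) summed to 1109 to 1330 CPM and Leydig cell markers (8 of 8) to 333 to 605 CPM. A count in any library was enough for a marker to be detected. Transcripts of round spermatids were scarce, with 10 of 12 markers detected and a sum of 7.70 to 10.8 CPM over them in RNA. One extract stood apart from the other 5. In *Mael*+/- replicate 1 the RNA levels of the 7 genes summed to 713 CPM, against 209 and 231 CPM in *Mael*+/- replicates 2 and 3 and 152 to 168 CPM in the *Mael*-/- replicates. The footprint levels summed to 858 CPM in that extract and to 227 to 340 CPM in the others. The comparisons of the genotypes are therefore also given without it.

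The first comparison asked whether RNA of the 7 genes differed between the genotypes. Each gene had a lower mean in *Mael*-/- testes, and for 6 of them the lowest *Mael*+/- library was above the highest *Mael*-/- library. None passed the test across all genes. The *Mael*+/- libraries were spread widely, with coefficients of variation of 62.8 to 136% over the 7 genes, against 1.14 to 57.2% in *Mael*-/- libraries. The means of *Mael*+/- were 2.11 to 14.5 times those of *Mael*-/- and, without replicate 1, 1.32 to 5.26 times.

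*Hspa2*, the meiotic heat shock protein, was measured at 355, 134 and 128 CPM in *Mael*+/- RNA and at 99.4, 101 and 92.2 CPM in *Mael*-/- RNA. *Clgn*, the other chaperone, was at 94.6, 19.1 and 24.3 CPM against 18.8, 16.3 and 12.8 CPM. For both genes *Mael*+/- replicate 1 was far above the other libraries and the genotypes did not overlap, although the lowest *Mael*+/- value of *Clgn* was just 1.02 times the highest *Mael*-/- value. The means of *Hspa2* were 206 ± 129 CPM (n = 3) and 97.4 ± 4.57 CPM (n = 3), and the difference was not called. Its log2 fold change, *Mael*-/- over *Mael*+/-, was -1.08 (SE 0.33, edgeR adjusted p = 0.758). That of *Clgn* was -1.53 (SE 0.52, edgeR adjusted p = 0.846).

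Among the axoneme genes, *Rsph1* of the radial spoke head was at 150, 31.9 and 42.5 CPM in *Mael*+/- RNA and at 27.8, 30.3 and 26.2 CPM in *Mael*-/- RNA. *Nme5* was at 5.72, 1.87 and 2.04 CPM against 1.16, 1.09 and 0.948 CPM. *Spag6* of the central pair was at 9.53, 0.878 and 2.15 CPM against 0.364, 0.0991 and 0.401 CPM, which rested on 220, 24 and 57 counts against 5, 2 and 11. None of the 3 genes overlapped between the genotypes, and the gap was widest for *Spag6*, whose lowest *Mael*+/- value was 2.19 times the highest *Mael*-/- value. The log2 fold change was -3.81 for *Spag6* (SE 0.91, edgeR adjusted p = 0.501). It was -1.59 for *Nme5* (SE 0.44, edgeR adjusted p = 0.681) and -1.41 for *Rsph1* (SE 0.48, edgeR adjusted p = 0.846).

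*Meig1*, the manchette gene, was at 78.2, 20.0 and 29.6 CPM in *Mael*+/- RNA and at 18.7, 18.3 and 18.7 CPM in *Mael*-/- RNA. The *Mael*-/- values hardly varied, with a coefficient of variation of 1.14%, while the *Mael*+/- values varied by 73.1%. Its log2 fold change was -1.19 (SE 0.40, edgeR adjusted p = 0.846). *Crisp2*, of the acrosome and tail, was at 20.8, 1.13 and 2.38 CPM against 1.24, 0.843 and 0.693 CPM. It was the 1 gene of the 7 whose genotypes overlapped in RNA, since *Mael*+/- replicate 2 was below *Mael*-/- replicate 1. Its log2 fold change was -3.17 (SE 0.98, edgeR adjusted p = 0.758).

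**Figure D1:**
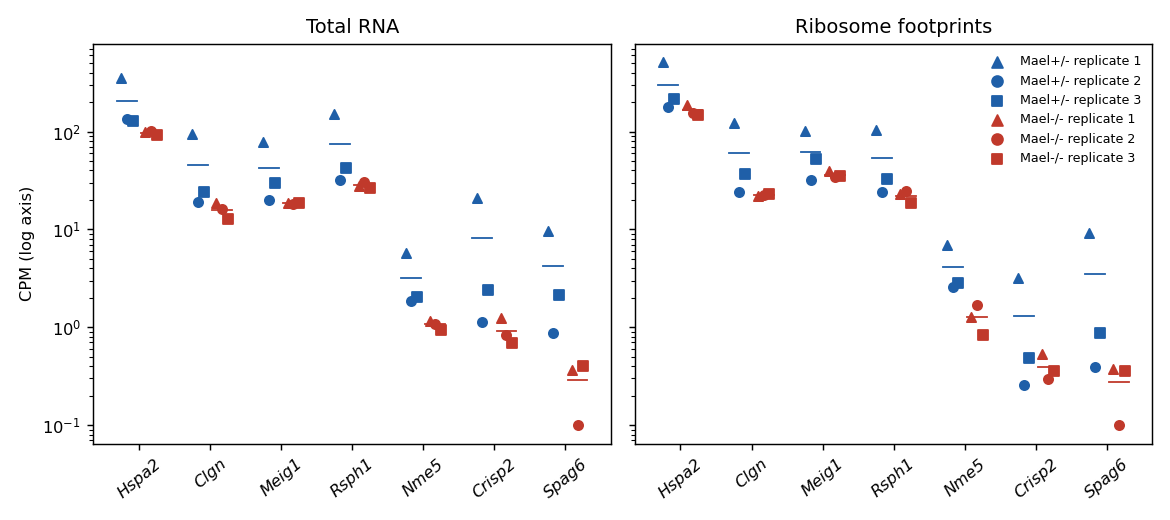
Level of each gene in CPM (log axis) in total RNA (left) and in ribosome footprints (right), with 1 symbol per library, blue for Mael+/- and red for Mael-/-, and a line at the mean of the 3 libraries. The triangle of Mael+/- replicate 1 is the highest of the 6 libraries for each gene in both assays, from 5.72 CPM for Nme5 to 355 CPM for Hspa2 in RNA.

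Of all 14685 genes tested in RNA, 1 was called lower in *Mael*-/- testes (0.00681%), which was *Mael*, and 0 of the 7 genes were called by edgeR's quasi-likelihood test, by DESeq2 or by limma voom with weights. At an unadjusted p under 0.05 in edgeR, 7 of 7 were lower, against 3.08% of all genes. Non-overlapping libraries with *Mael*+/- higher were found for 6 of 7 genes and for 5.03% of all genes. The 7 genes were measured in the same libraries and varied together, so they do not count as 7 separate observations.

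Without *Mael*+/- replicate 1 the differences were smaller and the libraries agreed more closely. *Hspa2* then fell in *Mael*-/- RNA, by 0.43 as a log2 difference (SE 0.089, 95% interval -0.62 to -0.24, edgeR adjusted p = 0.0498). This made it 1 of 7 genes called, against 0.155% of all genes called lower. *Spag6* had the largest difference of the 7, -2.35 (SE 0.51, 95% interval -3.44 to -1.26), and missed the threshold (edgeR adjusted p = 0.0677). The other genes ranged from -0.98 (*Crisp2*, SE 0.38) and -0.89 (*Nme5*, SE 0.29) to -0.46 (*Clgn*, SE 0.16), -0.42 (*Meig1*, SE 0.15) and -0.41 (*Rsph1*, SE 0.13), with edgeR adjusted p between 0.368 and 0.588. At an unadjusted p under 0.05, 7 of 7 were lower, against 2.85% of all genes. The direction below 0 itself was shared by 49.5% of genes. *Mael*+/- replicates 2 and 3 were both above the 3 *Mael*-/- libraries for 6 of 7 genes, against 9.81% of all genes.

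**Figure D2:**
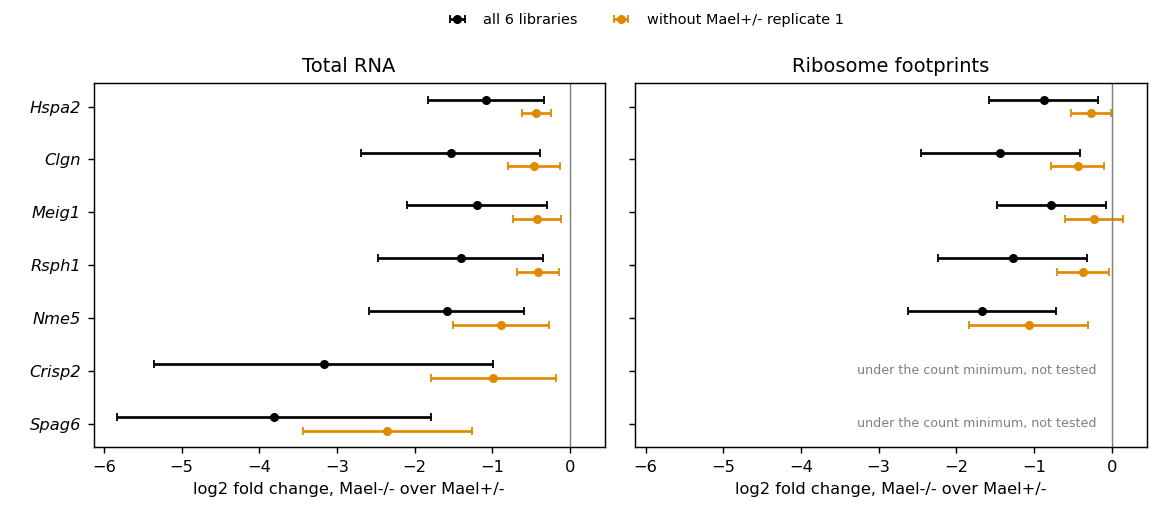
Log2 fold change of each gene, Mael-/- over Mael+/-, in total RNA (left) and footprints (right) from edgeR, with points for the estimate and bars for its 95% interval, in black for all 6 libraries of an assay and in orange without Mael+/- replicate 1. Leaving out that library moves the RNA estimate of Hspa2 from -1.08 to -0.43 and shortens its interval, and in footprints the orange interval of Meig1 crosses 0.

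Footprints, the fragments of coding sequence held by ribosomes, gave the same comparison at the level of translation. They came from the same extracts as the RNA, so the assays are not independent of each other. The mean of *Mael*+/- was 1.71 to 12.5 times that of *Mael*-/- over the 7 genes. *Hspa2* was at 511, 180 and 214 CPM in *Mael*+/- footprints and at 188, 156 and 149 CPM in *Mael*-/- footprints, and the genotypes overlapped. *Meig1* was at 102, 31.7 and 52.6 CPM against 39.5, 34.4 and 34.9 CPM, and here *Mael*+/- replicate 2 was the lowest of the 6 libraries. *Clgn* was at 122, 24.3 and 36.4 CPM against 22.0, 22.6 and 23.3 CPM.

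Of the axoneme genes in footprints, *Rsph1* was at 103, 24.3 and 32.4 CPM in *Mael*+/- libraries and at 22.8, 24.5 and 18.7 CPM in *Mael*-/- libraries. *Nme5* was at 6.89, 2.59 and 2.83 CPM against 1.29, 1.70 and 0.830 CPM. *Clgn* and *Nme5* were the genes without overlap among the 5 that could be tested, against 4.85% of all genes. *Crisp2* and *Spag6* were under the minimum for testing. *Crisp2* had 30, 2 and 5 counts in *Mael*+/- footprints and 7, 3 and 3 in *Mael*-/- footprints, and *Spag6* had 86, 3 and 9 against 5, 1 and 3.

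None of the 5 genes passed in footprints, where 1 of 13500 genes was called lower (0.00741%), by edgeR, and 0 of the 5 were called by DESeq2 or limma voom. The log2 fold changes were -0.88 for *Hspa2* (SE 0.32), -1.43 for *Clgn* (SE 0.46) and -0.78 for *Meig1* (SE 0.32). They were -1.67 for *Nme5* (SE 0.43) and -1.28 for *Rsph1* (SE 0.43), and edgeR adjusted p lay between 0.694 and 0.998 for the 5 genes. At an unadjusted p under 0.05, 5 of 5 were lower, against 2.79% of all genes. With no minimum on counts, the footprint difference on the log2 scale was -1.68 for *Crisp2* (SE 0.76) and -3.58 for *Spag6* (SE 0.96), with edgeR adjusted p of 0.966 and 0.367. Without *Mael*+/- replicate 1, the 5 genes ranged from -1.07 for *Nme5* (SE 0.35) to -0.23 for *Meig1* (SE 0.17, 95% interval -0.60 to 0.15). Of these, 4 of 5 had an unadjusted p under 0.05 in edgeR, against 2.94% of all genes, and 0 of 5 were called, against 0.0366%.

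*Mael*+/- extract 1 was high for each of the 7 genes. Its RNA level was 2.70 times the mean of the other *Mael*+/- libraries for *Hspa2*, 2.93 times for *Nme5*, 3.15 times for *Meig1*, 4.02 times for *Rsph1*, 4.36 times for *Clgn*, 6.29 times for *Spag6* and 11.8 times for *Crisp2*. On the log2 scale, 1 other gene of the 14685 tested stood out more in that library than *Crisp2* and 40 did so more than *Spag6*. For *Hspa2*, the least raised, the number was 221. This extract had the highest of the 6 RNA levels for 7 of 7 genes, against 27.5% of all genes, and the highest footprint level for 5 of 5, against 26.5%. The library was at least 2-fold above each of the other 5 RNA libraries for 7 of 7 genes, against 1.82% of all genes. In footprints this held for 4 of 5 genes, with *Meig1* the exception, against 1.29% of all genes. The order of *Mael*+/- replicate 1, then 3, then 2, then the *Mael*-/- libraries was found for 5 of 7 genes in RNA, *Hspa2* and *Crisp2* being the exceptions, and for 1.5% of all genes. In footprints it was found for 2 of 5, against 1.28%.

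Levels between the genes were compared per kilobase of exon, with *Spag6* left out because its locus is not certain. In *Mael*-/- RNA *Hspa2* had 36.9 CPM per kb (range of the 3 libraries 34.9 to 38.1), *Rsph1* 20.5 (19.1 to 22.1), *Meig1* 16.9 (16.6 to 16.97), *Clgn* 3.97 (3.18 to 4.67), *Nme5* 1.27 (1.12 to 1.38) and *Crisp2* 0.379 (0.284 to 0.507). No neighbours in this order overlapped over the libraries. In *Mael*+/- RNA the means followed in the same order, from 77.8 CPM per kb for *Hspa2* to 3.32 for *Crisp2*. There the ranges of the 3 libraries overlapped for each pair of neighbours in the order, as for *Hspa2* (48.5 to 134) and *Rsph1* (23.3 to 109), and for *Nme5* (2.21 to 6.79) and *Crisp2* (0.465 to 8.52). The upper end of each range was replicate 1, which was high for each gene, so these overlaps do not compare genes within a library. Within each *Mael*+/- library the order was the same, except that *Crisp2* (8.52) was above *Nme5* (6.79) in replicate 1.

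The genes also differed in how many footprints they had for their RNA. Footprint CPM per kb of coding sequence over RNA CPM per kb of exon had a median of 1.90 over 13219 genes in *Mael*+/- testes. *Meig1*, whose coding sequence has 264 bases, had a ratio of 6.08, above 95.3% of genes. *Clgn* had 2.91, *Hspa2* 2.04 and *Nme5* 1.70. *Rsph1*, at 1.08, was above 11.8% of genes, and *Crisp2*, at 0.522, above 2.31%. In *Mael*-/- testes *Meig1* had 8.15 and *Crisp2* 1.38, at a median of 1.88. These ratios use annotated exon lengths that may differ from the transcripts made in these cells, and those of *Crisp2* rest on at most 30 footprints a library.

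Translation efficiency, the change of footprints beyond that of RNA, was not called different for any of 13448 genes (0%) by edgeR, DESeq2 or limma voom, and 53 genes had an unadjusted p under 0.05 in edgeR. Among the members that passed the minimum in both assays, the log2 difference, *Mael*-/- minus *Mael*+/-, was 0.42 for *Meig1* (SE 0.61, 95% interval -0.89 to 1.72), 0.20 for *Hspa2* (-0.96 to 1.37) and 0.13 for *Rsph1* (-1.51 to 1.78). It was 0.10 for *Clgn* (-1.67 to 1.88) and -0.09 for *Nme5* (-1.63 to 1.46). Without *Mael*+/- replicate 1 the intervals were shorter, for *Hspa2* from -0.16 to 0.49 around 0.17 and for *Nme5* from -1.11 to 0.73 around -0.19. Since both libraries of a number came from 1 extract, a fit with the extract as a term narrowed them. In that paired fit *Hspa2* had 0.18 (-0.04 to 0.41), *Clgn* 0.09 (-0.21 to 0.38), *Rsph1* 0.10 (-0.14 to 0.34) and *Nme5* -0.12 (-0.85 to 0.62).

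*Meig1* had the largest positive difference of the 5 genes in this readout. Footprint CPM over RNA CPM was 1.31, 1.58 and 1.77 in the *Mael*+/- extracts and 2.11, 1.88 and 1.86 in the *Mael*-/- extracts. The 3 *Mael*-/- ratios were above the 3 *Mael*+/- ratios, which was so for 1 of 5 members and for 2.71% of all genes. In the paired fit the log2 difference was 0.36 (SE 0.13, 95% interval 0.09 to 0.62), with an unadjusted edgeR p of 0.0111 and an adjusted p of 0.99993. An unadjusted p under 0.05 with the higher value in *Mael*-/- was found for 0.714% of all genes. Without *Mael*+/- replicate 1 the unpaired difference of *Meig1* was 0.19 (SE 0.25, 95% interval -0.35 to 0.73).

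The ratios of *Hspa2* were 1.44, 1.34 and 1.67 in *Mael*+/- extracts and 1.90, 1.54 and 1.61 in *Mael*-/- extracts, and they overlapped. Those of *Rsph1* stayed below 1 in each extract, from 0.690 to 0.819. *Crisp2* had the lowest ratios of the 7 genes, 0.153, 0.228 and 0.205 in *Mael*+/- and 0.428, 0.355 and 0.514 in *Mael*-/- extracts. These did not overlap, but with no minimum on counts the paired log2 difference of 1.39 (SE 0.57) had an edgeR adjusted p of 1. The ratio of *Spag6* was 0.887 to 1.04 in 4 extracts and 0.442 and 0.408 in *Mael*+/- replicates 2 and 3, which held 3 and 9 footprint counts. The *Mael*-/- ratios of *Spag6* also rested on few counts, 5, 1 and 3 in footprints and 5, 2 and 11 in RNA.

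**Figure D3:**
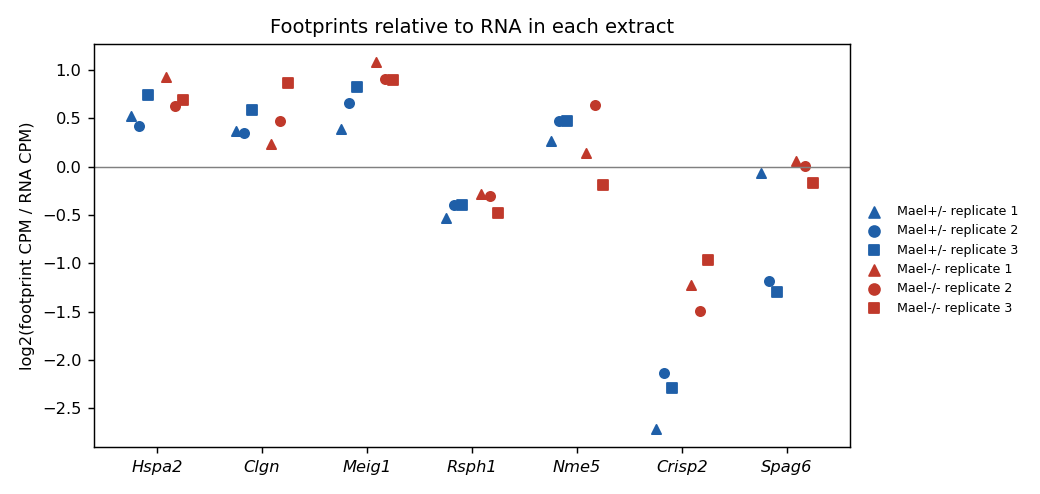
Log2 of footprint CPM over RNA CPM in each of the 6 extracts, blue for Mael+/- and red for Mael-/-, with symbols for the replicate number. For Meig1 the 3 Mael-/- extracts lie above the 3 Mael+/- extracts (ratios of 1.86 to 2.11 against 1.31 to 1.77), and for Hspa2, Clgn, Rsph1 and Nme5 the genotypes overlap.

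The 7 genes moved together. Over the 12 libraries, with log2 CPM centred within each assay, Pearson's r between pairs of them ran from 0.855 to 0.987 over 21 pairs (median 0.938). Without *Mael*+/- extract 1, over 10 libraries, it ran from 0.400 to 0.862 (median 0.749). The libraries share extracts and genotypes, so these values describe this set and carry no test. The 10 genes whose pattern was most like the mean of the 7 were taken from 143 genes with enough counts and spread. They were *Gml* (r = 0.992, and 0.969 without that extract), *Tcam1* (0.991 and 0.940), *Tcea2* (0.991 and 0.931), *Hemt1* (0.987 and 0.962), *Ccdc39* (0.984 and 0.873), *Pde1c* (0.983 and 0.860), *Piwil1* (0.982 and 0.851), *1700010I14Rik* (0.981 and 0.875), *Hsf5* (0.981 and 0.845) and *2610020H08Rik* (0.980 and 0.896). *Piwil1*, which encodes the piRNA-binding protein MIWI, was at 78.8, 10.9 and 13.9 CPM in *Mael*+/- RNA and at 8.08, 8.08 and 6.82 CPM in *Mael*-/- RNA.

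Genes that work with the 7 were then examined by role, as lists in which edgeR called no gene in any of the 3 comparisons with all libraries. The median log2 fold change of all genes in RNA was 0.00. Of the radial spoke list, to which *Rsph1* and *Nme5* belong by role, 9 of 9 tested genes were below 0 in RNA (median -0.55), as were 50.4% of all genes, and 7 of 9 without *Mael*+/- replicate 1 (median -0.10). Of the central apparatus list, the partners of *Spag6*, 7 of 7 were below 0 (median -0.82), and 5 of 7 without that replicate (median -0.32). The log2 fold changes of this list ran from -3.66 to -0.089 with all libraries. The lowest was that of *Spag17*, a large scaffold of the central pair. It was at 11.7, 0.658 and 1.36 CPM in *Mael*+/- and at 0.218, 0.446 and 0.365 CPM in *Mael*-/- RNA. Of the *Meig1* partners and other manchette genes, 10 of 10 were below 0 (median -0.26), and 6 of 10 without that replicate (median -0.04).

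The protein families of *Hspa2*, *Nme5* and *Crisp2* had medians close to that of all genes. Other HSP70 family genes had 7 of 12 below 0 with a median of -0.00, and CRISP family genes 3 of 5 (median -0.03). The list of nucleoside diphosphate kinase family genes had 2 of 7 below 0 (median 0.04). This list also held an adenylate kinase, which was among the 2 below 0. Of the chaperones and surface proteins of the *Clgn* pathway, 9 of 10 were below 0 (median -0.21). Without *Mael*+/- replicate 1, 2 of 11 fell in RNA by edgeR, where 0.155% of all genes were called lower. *Adam2*, a sperm surface protein that needs calmegin, fell by 1.96 on the log2 scale (adjusted p = 0.00273), and *Ly6k*, a surface protein of male germ cells, fell by 0.73 (adjusted p = 0.0046). *Adam2* was at 30.2, 3.04 and 5.10 CPM in *Mael*+/- and at 1.09, 0.991 and 1.06 CPM in *Mael*-/- RNA. In footprints without that replicate *Ly6k* fell by 0.74 (edgeR adjusted p = 0.0263), where 0.0366% of all genes were called lower, and *Adam2* was not called (-1.71, edgeR adjusted p = 0.210).

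Markers of the cell types of the testis moved as follows. Of another list of pachytene genes, 12 of 12 tested were below 0 in RNA (median -0.55). Their log2 fold changes ran from -3.12 to -0.046. *Ldhc*, the lactate dehydrogenase of germ cells, was near the lower end at -2.78. It was at 73.5, 4.32 and 9.89 CPM in *Mael*+/- and at 5.17, 3.87 and 3.83 CPM in *Mael*-/- RNA. Without *Mael*+/- replicate 1, 9 of 12 were below 0 (median -0.15). Early meiotic prophase genes had 9 of 12 below 0 (median -0.24), and 3 of 12 without that replicate (median 0.18). In that setting *Meiob*, a meiotic recombination gene, rose, with a log2 difference of 0.71 (adjusted p = 0.0492 in edgeR), while *Hspa2* fell. Summed RNA levels of the early meiotic list were 2672, 1189 and 1300 CPM in *Mael*+/- libraries and 1437, 1541 and 1136 CPM in *Mael*-/- libraries, so *Mael*+/- replicate 1 was again the highest. Whether any of the 7 genes' difference goes with cell composition was not tested.

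Markers of other cells were examined in the same way in RNA. Spermatogonial genes had 7 of 12 below 0 (median -0.01), Sertoli cell genes 4 of 12 (median 0.01), Leydig cell genes 4 of 8 (median 0.02), round spermatid genes 2 of 5 (median 0.07), and the 1 red blood cell gene tested had -0.07. Peritubular myoid genes had 0 of 6 below 0 (median 0.19) and macrophage genes 0 of 7 (median 0.35). The summed RNA levels of the myoid markers did not overlap, at 953 to 992 CPM in *Mael*+/- and 1073 to 1126 CPM in *Mael*-/- libraries. In footprints the myoid sums did overlap, at 1223 to 1508 and 1495 to 1827 CPM. The share of all genes with *Mael*-/- higher and no overlap was not counted. The RNA sums of the macrophage markers overlapped, at 133 to 222 CPM in *Mael*+/- and 209 to 216 CPM in *Mael*-/- libraries. *Rsph1*, *Spag6*, *Nme5* and *Meig1* are also used by ciliated epithelia. The markers of efferent ducts and epididymis summed to 13.1 to 16.4 CPM in RNA with the genotypes overlapping, and 3 of 4 tested were below 0 (median -0.08).

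**Figure D4:**
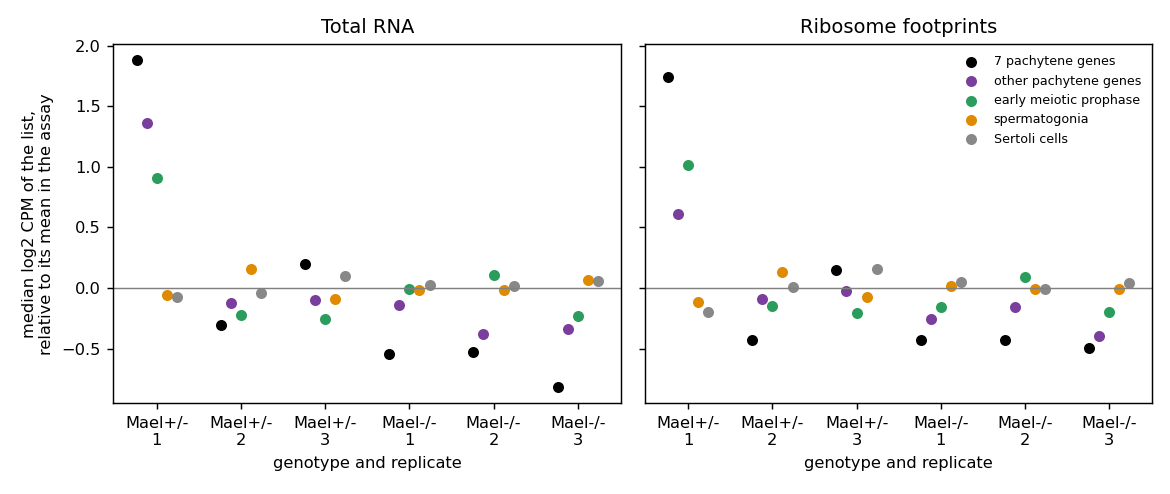
Median log2 CPM of a list's genes, each gene relative to its mean over the 6 libraries of the assay, for each extract in RNA (left) and footprints (right), with 1 point per list and extract. In Mael+/- replicate 1 the 7 genes lie at 1.88 in RNA and the early meiotic list at 0.91, whereas spermatogonial (-0.06) and Sertoli cell (-0.08) markers lie near 0.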

How the data were processed

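RNA and ribosome footprint libraries of 3 *Mael*+/- and 3 *Mael*-/- testis extracts were analysed (12 in all). Per the methods, testes were homogenized in a lysis buffer and the lysates were cleared by centrifugation. Part of each extract gave stranded total RNA libraries depleted of ribosomal RNA, and part was digested with micrococcal nuclease for footprints. The authors clipped adapters, removed ribosomal DNA reads with Bowtie 1.2.2, aligned to mm10 with STAR 2.6.0c and deposited raw counts from featureCounts (Subread 1.6.4), RNA reads being counted over the whole mRNA and footprints over its coding part. Whether duplicates were collapsed is not stated, so precision describes the deposited counts. The authors' own result tables (log2 fold changes, standard errors and p-values from DESeq2 1.24.0) were not used.

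Of 20620 genes, 18024 had counts. Rows of repeats were left out. The test was that of edgeR 4.0.16, run in R 4.3.3 (quasi-likelihood F-test, TMM within an assay, default minimum on counts, Benjamini-Hochberg adjustment over all genes tested, with calls at adjusted p under 0.05). The 2 assays were fitted over 6 libraries each, and translation efficiency as the interaction of genotype and assay over 12 among genes passing in both assays. RNA and footprints of 1 extract deviated together from their group means (r of 0.593 to 0.746 for *Mael*+/- and 0.224 to 0.241 for *Mael*-/-) and were treated as pairs in the paired fit. P-values measure the spread between these extracts.

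The text names the 7 genes, *Mael*, *Spag6l*, up to 3 called genes of a list, and the 10 genes most like the mean of the 7 (Pearson's r of centred log2 CPM with a prior count of 2, at least 50 counts on average in both assays, SD of at least 0.5). *Spag16*, *Hspa5*, *Adam3*, *Crisp1* and *Crisp4* each stand in more than 1 list. *Spag17*, *Ldhc* and *Gm20539* were named after their values were seen. The members and lists were chosen with earlier results of these data known. Exon and coding lengths came from GENCODE annotation of GRCm38, positions and promoter windows from RefSeq. The tests were tried on simulated data with known changes. Alternatives were DESeq2 1.42.0, limma 3.58.1 (voom with weights), median-of-ratios factors, no minimum on counts, a replicate block and leaving out each replicate.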

Additional observations from a re-analysis of the deposited data

How the results depend on the processing

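Of the 230 values recomputed under alternatives, 207 stayed the same, which means the same direction and side of the threshold for a fold change, within 1.5 times for a count and within 1 SD for the summed level. No member was called in the main fits, so this label does not show a stable size. *Clgn* in RNA counted as the same at -1.53 and, without *Mael*+/- replicate 1, at -0.46. The SD was that of the *Mael*+/- libraries with replicate 1 among them. The summed RNA level thus counted as the same at a log2 ratio of -1.24 and, without that replicate, at -0.44. The log2 fold changes of the members tested in RNA (7) and footprints (5) stayed below 0 in each. *Hspa2* in RNA ranged from -1.33 to -0.43 when 1 replicate was left out, and was called without *Mael*+/- replicate 1 alone (-0.43, edgeR adjusted p = 0.0498). Calls in RNA numbered 17, and 58 with DESeq2, 36 with limma voom weights and 50 with the replicate block, and from 2 (without *Mael*-/- replicate 1) to 64 (without *Mael*+/- replicate 1) when 1 replicate was left out. In footprints they numbered 8, and 21 with DESeq2 and 23 with the replicate block, and from 2 (without *Mael*+/- replicate 3) to 17 (without *Mael*+/- replicate 1). Translation efficiency changed sign with voom weights for *Hspa2* (-0.0047), *Clgn* (-0.13) and *Rsph1* (-0.17), and without *Mael*-/- replicate 3 for *Clgn* (-0.061) and *Nme5* (0.022), in ranges over left-out replicates of -0.061 to 0.25 and -0.30 to 0.022. The cause was not tested.

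*Mael*+/- and *Mael*-/- libraries of 1 number share that number alone, with r of 0.0013 to 0.207 in RNA and 0.0366 to 0.188 in footprints, and 3 of 6 RNA and 4 of 6 footprint libraries were most like their own number. With the replicate block *Spag6* was called in RNA (-3.42, edgeR adjusted p = 0.00571), and the other 6 were not (0.109 to 0.395). The paired fit of translation efficiency called 0 genes, as did the fit without it. Its version with no minimum on counts was chosen after seeing the data. Depth limits *Crisp2* and *Spag6* in footprints, where single libraries held 1 to 9 counts outside *Mael*+/- replicate 1.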
